A study of Mus musculus with 10 samples.

Results

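The genes described here code for the SR and hnRNP splicing regulators and for the protein parts of the spliceosome that first read an intron. They were chosen by symbol: Srsf, Tra2 and Srrm genes (16, called the SR family here), Hnrnp genes (18), Snrp genes (9), Sf3a and Sf3b genes (9) and U2af genes (3). That gave 55 of the 22180 genes measured by a probe set with a single gene symbol, with the probe set of highest mean kept where a gene had several. Hnrnpa1, Hnrnph3, Snrpa, Snrpf and Snrpn matched by symbol but lay only on probe sets shared with other genes, and are not described. Values are log2 array intensities, so a difference of 1 is a doubling, and they are compared between groups for 1 probe set at a time.

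CD1 mice supplied the embryonic cortices, dissected at day 12 to 13 of gestation, and no group carried a mutation or received a drug per the labels. It was bound to 4E-T in 3 arrays (numbered 1, 2 and 3), carried down by control IgG in 3 arrays (numbered 2, 3 and 4), or taken as the total input in 4 arrays (numbered 1 to 4). The study's title concerns a complex of the cap-binding protein eIF4E1 and its partner 4E-T that represses translation in neural precursors, the dividing cells that give rise to cortical neurons. Dissected cortex mixes precursors, neurons and other cells, so the cells that a transcript came from cannot be told apart. A difference between groups is one in the RNA recovered from the same kind of tissue, not in cell number or level per cell. More RNA with 4E-T and less with IgG can be told apart only beside the input.

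SR proteins bind exonic enhancers and recruit the spliceosome, and hnRNP proteins coat nascent transcripts and often block splice sites. Sm proteins form the ring at the core of each small nuclear ribonucleoprotein (snRNP), while SF3A and SF3B join the U2 snRNP at the branch point and U2AF recognises the end of the intron. Many SR and hnRNP genes control their own output by splicing in poison exons or by holding back introns, and some of these transcripts stay in the nucleus. 4E-T shuttles between nucleus and cytoplasm and takes part in repressing translation of mRNAs in cytoplasmic processing bodies.

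Arrays within a group correlated at 0.98 to 0.991 (4E-T), 0.975 to 0.982 (IgG) and 0.975 to 0.992 (input) across genes. 4E-T 1 and input 1 stood apart, with median values of 3.52 to 3.54 against 4.33 to 4.54 in the other 8 arrays. These 2 arrays also held identical values at 7.52% of probe sets, against at most 0.138% in any of the 44 other pairs. The model therefore has a term for this pair besides the group. 4E-T 1 and input 1 are directly comparable only with each other, and 4E-T 1 enters the comparison with IgG only through its difference from input 1. Of 8 markers of cortical precursors 5 were called higher in 4E-T than in IgG precipitates (7.57% of all genes) and 0 lower. With group as the only term 0 were called either way, and 5 higher and 0 lower had an unadjusted p under 0.05 in limma. The mean of the 8 was 9.27 to 9.41 in 4E-T 2 and 3, 8.70 to 8.72 in IgG and 8.76 to 8.95 in input 2 to 4. Against input 4 of the 8 were higher with 4E-T and 1, Vim (-0.76), was lower (10.4% and 8.86% of all genes). Markers of other cells were also called higher with 4E-T than with IgG. These were 1 of 8 in neurons, 1 of 7 in endothelium, 1 of 7 in meninges and mesenchyme, and 1 of 4 erythroid. In neurons 1 was lower, and in microglia and macrophages 0 of 8 were called.

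In the model with the term for the low pair, transcripts for splicing factors were depleted more often than enriched in 4E-T precipitates relative to IgG precipitates. At an adjusted p under 0.05 in limma, 11 of the 55 genes were lower with 4E-T (20.0%, against 2.92% of all genes) and 4 were higher (7.27%, against 7.57% of all genes). The lower genes were Hnrnph1, Hnrnpa2b1, Hnrnpa3 and Hnrnpm, then Tra2a, Srsf6, Srsf10 and Srsf11, then Sf3b2 and Sf3b6, and U2af1. The higher genes were U2af1l4, Sf3a1, Sf3a2 and Srsf12. The median difference of the 55 genes was -0.22, against 0.03 for all genes. All 55 lay in the brighter 11090 genes, with a median level of 9.16, against 4.75 for all genes, and a median percentile of 96. In a fit of the brighter genes alone 15 were lower (27.3%, against 6.6% of these genes) and 5 higher (9.09%, against 19.5%).

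These calls depend on how the low pair of arrays is treated and on both of the other 4E-T arrays. With group as the only term, 0 of the 55 genes were called higher and 0 lower by limma (0.708% and 0.64% of all genes). Of the 55, 4 higher and 14 lower had an unadjusted p under 0.05, and the 15 genes above kept their sign at adjusted p 0.0655 to 0.617. On the 8 arrays of one scale 3 genes were higher (5.45%, against 6.29% of all genes) and 9 lower (16.4%, against 2.33%). With arrays centred on their medians and group as the only term, 4 of the 15 stayed called and no other gene was. Sf3a1 and U2af1l4 were then higher and Sf3b2 and U2af1 lower, so depletion was not more frequent than enrichment. Without 4E-T 2 only Hnrnph1 of the 15 stayed called (the others had adjusted p 0.0502 to 0.22), and without 4E-T 3 Hnrnph1, Sf3b2 and U2af1l4 did (others 0.0524 to 0.172). Of 8 nuclear RNAs listed, 6 were also lower in 4E-T than in IgG precipitates (2.92% of all genes) and 0 higher. With group as the only term 3 were lower and 0 higher (6 and 0 at an unadjusted p under 0.05 in limma). The mean of the 8 was 6.04 to 6.07 in 4E-T 2 and 3, 6.97 to 7.16 in IgG and 6.47 to 6.69 in input 2 to 4. Xist (-2.04), Miat (-1.97) and Malat1 (-0.67) were among the 6, and their part in the result was not tested. Neat1 (0.0025) and Snhg11 (-0.24) were not called. In IgG against input the nuclear RNAs parted from the 55 genes. Of the nuclear RNAs 4 were higher and 0 lower (6.14% and 10.5% of all genes), with a median of 0.54. Of the 55 genes 3 were higher and 8 lower, with a median of -0.10.

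**Figure D1:**
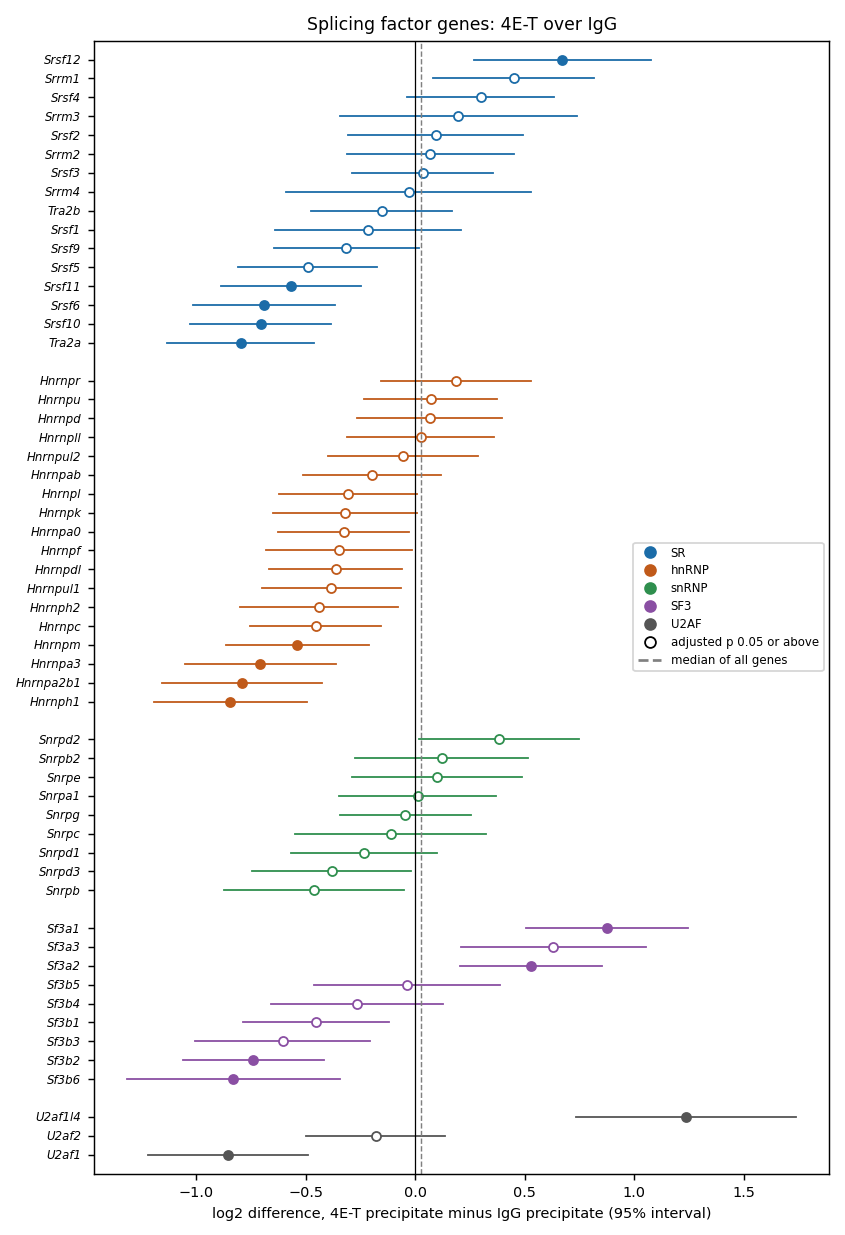
Log2 difference between 4E-T and IgG precipitates for each of the 55 genes by family, with 95% intervals; filled points passed adjusted p under 0.05 and the dashed line is the median of all genes. U2af1l4 (1.24) lies farthest to the right and U2af1 (-0.86) farthest to the left, and Sf3b2 and Sf3b6 are filled left of 0, Sf3a1 and Sf3a2 right of it.

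Of the 18 hnRNP genes 4 passed as lower with 4E-T than with IgG (2.92% of all genes) and 0 higher (0 also at an unadjusted p under 0.05 in limma, and 7.57% of all genes called). The family median was -0.34, against 0.03 for all genes. It was -0.41 with group as the only term, where that of all genes was -0.19, and -0.22 with arrays centred on their medians. Hnrnph1, which binds runs of G and switches exons on or off, had 7.84, 8.28 and 8.22 in 4E-T arrays 1 to 3, against 9.18, 9.04 and 8.81 in IgG arrays 2 to 4 and 8.79, 8.73, 8.76 and 8.67 in input arrays 1 to 4. On the common scale 4E-T 2 and 3 were below every IgG and input array, and 4E-T 1 was below input 1. The difference from IgG was -0.84 ± 0.16 (SE here and below), a level 1.80-fold lower in 4E-T (adjusted p = 0.00687), and it was called in all 10 fits that left out an array.

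Hnrnpa2b1, whose A2 and B1 proteins package nascent transcripts and carry RNAs in neural cells, had 9.80, 9.66 and 9.69 with 4E-T, against 10.63, 10.59 and 10.54 with IgG and 10.05, 10.73, 10.55 and 10.57 in input. 4E-T 2 and 3 again lay below the IgG and input arrays of their scale, and 4E-T 1 below input 1, with a difference from IgG of -0.79 ± 0.17 (adjusted p = 0.0118; 0.0866 without 4E-T 2 and 0.0825 without 4E-T 3). Its close relative Hnrnpa3 had 6.94, 6.51 and 6.75 with 4E-T, against 7.42, 7.43 and 7.25 with IgG and 7.01, 6.72, 6.79 and 7.11 in input. Here, on the common scale, the IgG arrays stood above both other groups, which overlapped each other. Hnrnpa3 was -0.71 ± 0.16 against IgG (adjusted p = 0.0153; 0.108 without 4E-T 2) and -0.19 against input (adjusted p = 0.447).

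Hnrnpm, a repressor and enhancer of alternative exons, lay at 9.06, 9.02 and 9.01 with 4E-T, against 9.77, 9.54 and 9.38 with IgG. 4E-T 2 and 3 lay below all 3 IgG arrays, but the call (-0.54 ± 0.15, adjusted p = 0.0403) was lost in 9 of the 10 fits that left out an array, with adjusted p up to 0.158 without 4E-T 3. The other 14 hnRNP genes were not called. Hnrnpr, which binds the mRNA of beta-actin in axons, had the highest difference of the family at 0.19 (adjusted p = 0.541), with 8.41 and 8.34 in 4E-T 2 and 3 against 8.28, 8.30 and 7.94 in IgG. Hnrnpk, a poly(C)-binding member with KH domains, had 11.21 and 11.54 in 4E-T 2 and 3 against 11.63, 11.73 and 11.70 in IgG, a difference of -0.32 (adjusted p = 0.221).

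Hnrnpu, which ties RNA to chromatin, was read by 2 probe sets that disagreed. The brighter one, used here, differed by 0.07 between 4E-T and IgG precipitates, while the other differed by -1.59. For the mean of both the difference was -0.76 with an adjusted p of 0.0086.

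Within the SR family 4 of 16 genes were lower and 1 was higher with 4E-T than with IgG (2.92% and 7.57% of all genes), around a median of -0.09. That median was 0.03 when the arrays were centred on their own medians. Tra2a, an activator that binds GA-rich exonic enhancers, had 8.86, 8.47 and 8.48 in 4E-T arrays, against 9.47, 9.33 and 9.32 in IgG and 9.36, 9.54, 9.51 and 9.57 in input. 4E-T 2 and 3 were below the IgG and input arrays of their scale, and 4E-T 1 below input 1, with a difference from IgG of -0.80 ± 0.15 (adjusted p = 0.00761; 0.0603 without 4E-T 2 and 0.0598 without 4E-T 3). Its paralogue Tra2b differed by -0.15 and was not called.

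Srsf10, an SR protein that represses splicing when dephosphorylated, had 8.10, 8.37 and 8.41 with 4E-T, against 9.19, 9.10 and 8.91 with IgG and 8.30, 8.44, 8.61 and 8.30 in input. The IgG arrays were the high group, and 4E-T 2 and 3 overlapped input 2 to 4. The difference was -0.71 ± 0.15 against IgG (adjusted p = 0.0113; 0.0605 without 4E-T 2 and 0.0524 without 4E-T 3), and -0.10 against input (adjusted p = 0.705). Srsf6, a classical SR protein, had 9.08, 9.34 and 9.22 with 4E-T against 10.09, 9.95 and 9.85 with IgG, and Srsf11 had 7.97, 8.45 and 8.23 against 9.10, 8.79 and 8.84. In both genes 4E-T 2 and 3 lay below all IgG arrays; the differences were -0.69 ± 0.15 for Srsf6 (adjusted p = 0.0125; up to 0.0777, without 4E-T 3) and -0.57 ± 0.15 for Srsf11 (adjusted p = 0.0287; up to 0.167, without 4E-T 3). Srsf5, whose protein also binds exonic enhancers, had 10.18 and 10.03 in 4E-T 2 and 3 against 10.69, 10.70 and 10.50 in IgG. Its difference of -0.49 fell short of the threshold (adjusted p = 0.0535). It passed with the replicate block (0.0418), in the fit of brighter genes (0.0227), in a trended robust fit (0.0101) and without IgG 4 (0.0487).

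Srsf12 was the SR gene that rose in 4E-T relative to IgG, with 5.60 and 5.72 in 4E-T 2 and 3 (4.85 in 4E-T 1), against 4.71, 5.08 and 5.16 in IgG and 5.28, 5.31 and 5.80 in input 2 to 4. On the common scale 4E-T lay above IgG and inside the input range. The difference from IgG was 0.67 ± 0.19 (adjusted p = 0.0388; 0.114 without 4E-T 2 and 0.17 without 4E-T 3). The 4 Srrm genes, which code for large serine- and arginine-rich scaffold proteins, were not called, although Srrm1 passed at an unadjusted p under 0.05.

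Of the 9 SF3 genes 2 were called higher in 4E-T than in IgG precipitates, Sf3a1 and Sf3a2 (7.57% of all genes), and 2 lower, Sf3b2 and Sf3b6 (2.92% of all genes). The median difference was 0.63 over the 3 Sf3a genes and -0.53 over the 6 Sf3b genes. The 3 Sf3a values were above 0 and the 6 Sf3b values below 0, as were 46.3% of all genes, but Sf3b5 (-0.037) was at 0.06 with group as the only term and 0.25 with centred arrays, and Sf3b4 (-0.27) at 0.077 with centred arrays. The difference between the complexes was not tested. Sf3a1, the largest SF3A subunit, had 7.90, 8.76 and 8.85 with 4E-T, against 7.88, 7.82 and 7.73 with IgG and 8.04, 8.32, 8.13 and 8.34 in input. On the common scale 4E-T 2 and 3 were the highest arrays and IgG the lowest. The difference from IgG was 0.88 ± 0.17, a level 1.84-fold higher (adjusted p = 0.00766; 0.0554 without 4E-T 2 and 0.0645 without 4E-T 3), and that from input was 0.34 (adjusted p = 0.155). IgG was at -0.53 against input (adjusted p = 0.036; up to 0.0869, without IgG 4).

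Sf3a2 had 7.93, 7.86 and 7.62 with 4E-T, against 7.27, 7.32 and 7.04 with IgG and 7.40, 7.26, 7.05 and 7.26 in input. 4E-T 2 and 3 were the highest arrays of their scale, and 4E-T 1 was above input 1. It was the only gene of the 55 called higher than both IgG and input (4.27% of all genes were), but its difference of 0.53 ± 0.15 from IgG (adjusted p = 0.0432) was lost in each of the 10 fits that left out an array (adjusted p 0.0536 to 0.22). Against input it was at 0.55 ± 0.13 (adjusted p = 0.0121; 0.0864 without 4E-T 2). The difference of Sf3a3, the remaining SF3A subunit, was 0.63 (adjusted p = 0.0586). Sf3a3 was called higher on the 8 arrays of one scale, in the fit of brighter genes, in a trended robust fit and without IgG 2.

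Sf3b2, an SF3B subunit that touches the intron near the branch point, had 8.67, 9.45 and 9.64 with 4E-T, against 10.21, 10.23 and 10.22 with IgG and 9.37, 10.05, 9.84 and 9.84 in input. Both 4E-T 2 and 3 lay below the IgG and input arrays of their scale. The difference from IgG was -0.74 ± 0.15 (adjusted p = 0.00856; 0.0566 without 4E-T 2). A second, dimmer probe set of Sf3b2 gave -0.36 for 4E-T against IgG. For IgG against input it gave -0.31, where the probe set used here gave 0.27. For the mean of both, 4E-T was at -0.55 against IgG (adjusted p = 0.0247). Sf3b6, a small subunit next to the branch adenosine, had 9.17, 8.44 and 8.55 with 4E-T, against 9.57, 9.71 and 9.25 with IgG and 9.71, 10.14, 10.14 and 9.91 in input. Among arrays of one scale 4E-T was lowest, IgG lay between and input was highest, with -0.83 ± 0.22 against IgG (adjusted p = 0.0341; up to 0.194, without 4E-T 2).

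Promoter sequences were available for 7 of the 9 SF3 genes, and are shown because the 2 called higher and the 2 called lower carry the same motif. The windows of 60 bases are from RefSeq (GRCm38.p6), 5′ to 3′ on the gene's strand. Capitals mark CCGGAAG, a form of ETS factor site, or its reverse complement CTTCCGG.
Sf3a1 chr11:4160319-4160378 (+): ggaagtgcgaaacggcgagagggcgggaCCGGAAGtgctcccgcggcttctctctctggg
Sf3a2 chr10:80798632-80798691 (+): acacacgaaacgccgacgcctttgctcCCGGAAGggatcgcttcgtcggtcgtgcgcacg
Sf3a3 chr4:124714744-124714803 (+): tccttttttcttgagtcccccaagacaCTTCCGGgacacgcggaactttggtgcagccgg
Sf3b2 chr19:5295436-5295495 (-): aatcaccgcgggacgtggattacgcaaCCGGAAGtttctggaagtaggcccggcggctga
Sf3b3 chr8:110846994-110847053 (-): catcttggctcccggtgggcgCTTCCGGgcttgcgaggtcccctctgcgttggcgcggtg
Sf3b6 chr12:4817496-4817555 (+): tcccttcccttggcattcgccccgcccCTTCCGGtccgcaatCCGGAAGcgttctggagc
Sf3b1 chr1:55027474-55027533 (-): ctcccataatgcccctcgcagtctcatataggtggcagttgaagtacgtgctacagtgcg
Sf3b1 has no match in its 300-base promoter. The matches lie 7 bases before the start in Sf3a1, 11 in Sf3b2, 76 in Sf3a2, 90 in Sf3a3 and 229 in Sf3b3, and Sf3b6 holds one on each strand.

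Over the 63 promoters listed for 48 of the 55 genes, 20 held CCGGAAG on either strand (31.7%, against 8.86% of all 32817 promoters of 300 bases). By gene these were 6 of 7 SF3, 4 of 7 snRNP (Snrpb2, Snrpc, Snrpe, Snrpg), 3 of 16 SR, 2 of 16 hnRNP and 0 of 2 U2AF genes. CCAAT on either strand stood in 47.6% of the 63 (37.4% of all) and TATAAA in 7.94% (13.6%). The median GC content was 63.3% in these promoters and 52.7% in all. The motif counts were not matched for GC content.

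The U2AF genes held both extremes of the 55. U2af1, the small subunit that reads the AG at the end of the intron, had 8.53, 8.71 and 8.61 with 4E-T, against 9.82, 9.56 and 9.40 with IgG and 8.81, 9.50, 9.40 and 9.24 in input. 4E-T 2 and 3 were the lowest arrays of their scale and 4E-T 1 was below input 1, with a difference from IgG of -0.86 ± 0.17 (adjusted p = 0.008; 0.0517 without 4E-T 2 and 0.0645 without 4E-T 3). Its paralogue U2af1l4 had 7.20, 8.21 and 8.20 with 4E-T, against 6.51, 6.79 and 7.10 with IgG and 8.17, 8.09, 8.10 and 8.45 in input. The difference from IgG was 1.24 ± 0.23, a level 2.36-fold higher (adjusted p = 0.00621; 0.0502 without 4E-T 2).

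For U2af1l4 the IgG arrays were the low ones, and 4E-T 2 and 3 lay within the input range. IgG was -1.53 ± 0.21 against input (adjusted p = 5.35e-04) and 4E-T was -0.29 (adjusted p = 0.421), although 4E-T 1 was 0.97 below input 1. Its other probe set gave 1.06 for 4E-T against IgG and -1.19 for IgG against input. The gene overlaps Psenen in the annotation. Over the 8 arrays of one scale the genes whose values were most like those of U2af1l4 were Chchd5 (Pearson r 0.996), Fam122a (0.991), Hsbp1 (0.991), Rtl6 (0.98) and Traf4 (0.98). In all 5 the IgG arrays lay below the other 5 arrays of that scale, which follows from choosing them by likeness to U2af1l4. U2af2, the large subunit that binds the polypyrimidine tract, differed by -0.18 between 4E-T and IgG and was not called.

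**Figure D2:**
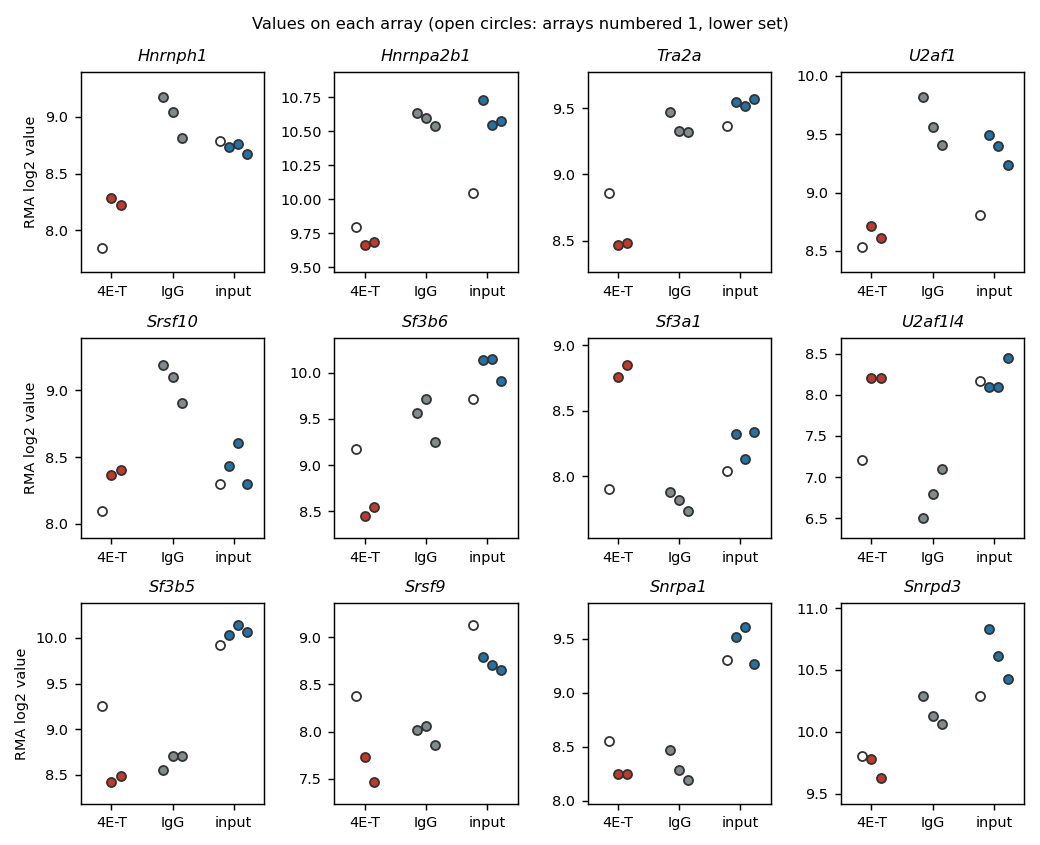
Log2 intensity of 12 splicing factor genes on every array, with 4E-T left of IgG and input; open circles are the arrays numbered 1, which lie on a lower scale. Among the filled points Hnrnph1, Hnrnpa2b1, Tra2a and U2af1 are lowest in 4E-T, while Sf3b5, Srsf9 and Snrpa1 are low in both precipitates.

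None of the 9 snRNP genes was called between 4E-T and IgG precipitates in limma (0 of 9, with 3 at an unadjusted p under 0.05). Their median difference was -0.04, with Snrpd2 highest at 0.38 (adjusted p = 0.19) and Snrpb lowest at -0.46 (adjusted p = 0.157). Both are Sm proteins. The calls in this family were against input, described next.

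Relative to input, 20 of the 55 genes were lower in 4E-T precipitates (36.4%, against 8.86% of all genes) and 1 was higher (1.82%, against 10.4%). In the fit of the brighter genes 22 were lower (40.0%, against 20.0%) and 3 higher (5.45%, against 23.9%). On the 8 arrays of one scale 17 were lower (30.9%, against 7.2% of all genes) and 4 higher (7.27%, against 8.88%). Of the 55 genes 34 were below input in each of the 3 numbered pairs (61.8%, against 20.5% of all genes) and 6 above it (10.9%, against 26.3%). Neither these pair counts nor those of IgG below were set against brighter genes alone. In pair 1 alone, which lies on the lower scale, 43 of 55 were lower in 4E-T 1 than in input 1, against 41.9% of all genes. With group as the only term 6 were called lower (3.58% of all genes) and 0 higher (2.56% of all genes), while 1 was higher and 20 lower at an unadjusted p under 0.05 in limma.

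Relative to input, 8 genes were lower in IgG precipitates (14.5%, against 10.5% of all genes) and 3 were higher (5.45%, against 6.14%). In the fit of the brighter genes the lower share was 21.8% and that of all these genes 23.9%, and 4 genes were higher (7.27%, against 13.5%). On the 8 arrays of one scale 9 were lower (16.4%, against 9.97%) and 2 higher (3.64%, against 5.68%). Between same-numbered arrays 23 genes were below input in all 3 pairs (41.8%, against 23.1% of all genes) and 17 above it (30.9%, against 23.9%). With group as the only term 3 were lower (3.99% of all genes) and 0 higher (1.45% of all genes), while 2 were higher and 7 lower at an unadjusted p under 0.05 in limma. The comparisons with input share the input arrays, so their values are given side by side.

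**Figure D3:**
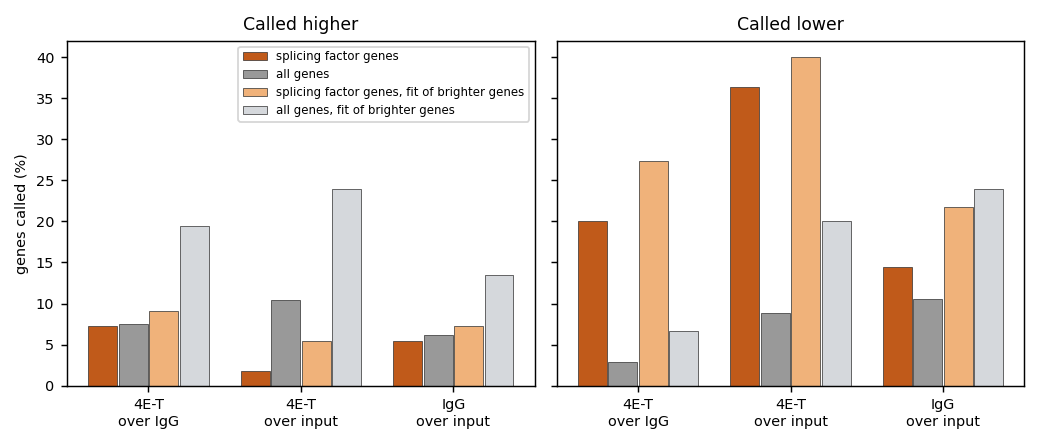
Percent of genes called higher or lower in each comparison, for the 55 splicing factor genes and for all genes, in the fit of all 22180 genes and in that of the brighter 11090. The share called lower in 4E-T is above that of all genes against both IgG (20.0% and 2.92%) and input (36.4% and 8.86%), while in IgG against input it is 14.5% and 10.5%.

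Against input, 5 of 9 snRNP genes were called lower with 4E-T (8.86% of all genes) and 4 of 9 with IgG (10.5% of all genes), with median differences of -0.60 and -0.43. Snrpa1 and Snrpb2 were called in both precipitates. Snrpa1, a U2 snRNP protein, had 8.55, 8.25 and 8.25 with 4E-T and 8.48, 8.29 and 8.19 with IgG, against 9.30, 9.51, 9.61 and 9.27 in input. On the common scale every precipitate array was below every input array, and 4E-T 1 was below input 1, with differences from input of -1.08 for 4E-T (adjusted p = 4.04e-04) and -1.09 for IgG (adjusted p = 5.43e-04). Snrpb2, its partner on the U2 particle, had 7.58, 7.64 and 7.69 with 4E-T and 7.88, 7.63 and 7.34 with IgG, against 7.92, 8.55, 8.48 and 8.24 in input. It was -0.64 with 4E-T (adjusted p = 0.0144; 0.0852 without 4E-T 2 and 0.074 without 4E-T 3) and -0.76 with IgG (adjusted p = 0.00807).

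Among the Sm genes the calls differed by precipitate, and those differences between precipitates did not pass the test. Snrpd3 had 9.80, 9.78 and 9.63 with 4E-T and 10.29, 10.13 and 10.07 with IgG, against 10.29, 10.83, 10.61 and 10.43 in input. Among arrays of one scale it was lowest in 4E-T, at -0.79 against input (adjusted p = 0.00267), and -0.41 with IgG (adjusted p = 0.0936). Snrpd1 had 10.21, 10.31 and 10.50 with 4E-T and 10.83, 10.56 and 10.50 with IgG, against 10.91, 11.12, 11.15 and 10.90 in input, giving -0.67 (adjusted p = 0.00447) and -0.43 (adjusted p = 0.0558). The input arrays 2 to 4 lay above both precipitates in these genes.

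Snrpb had 8.41, 7.98 and 7.95 with 4E-T and 8.76, 8.62 and 8.19 with IgG, against 8.61, 8.69, 8.84 and 8.65 in input. IgG overlapped input 2 to 4, and 4E-T was -0.60 against input (adjusted p = 0.0255; up to 0.131, without 4E-T 3). In Snrpd2 the IgG arrays were the lowest of their scale apart from an overlap with 4E-T 2. It had 10.62, 10.34 and 10.75 in 4E-T and 10.14, 10.07 and 10.42 in IgG, against 10.77, 10.91, 11.01 and 11.01 in input. It was -0.35 with 4E-T (adjusted p = 0.137) and -0.73 with IgG (adjusted p = 0.00639). Snrpe was -0.58 with IgG (adjusted p = 0.0306; up to 0.108, without input 2), and Snrpc, a U1 snRNP protein, was 0.08 with 4E-T and 0.19 with IgG, neither called.

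**Figure D4:**
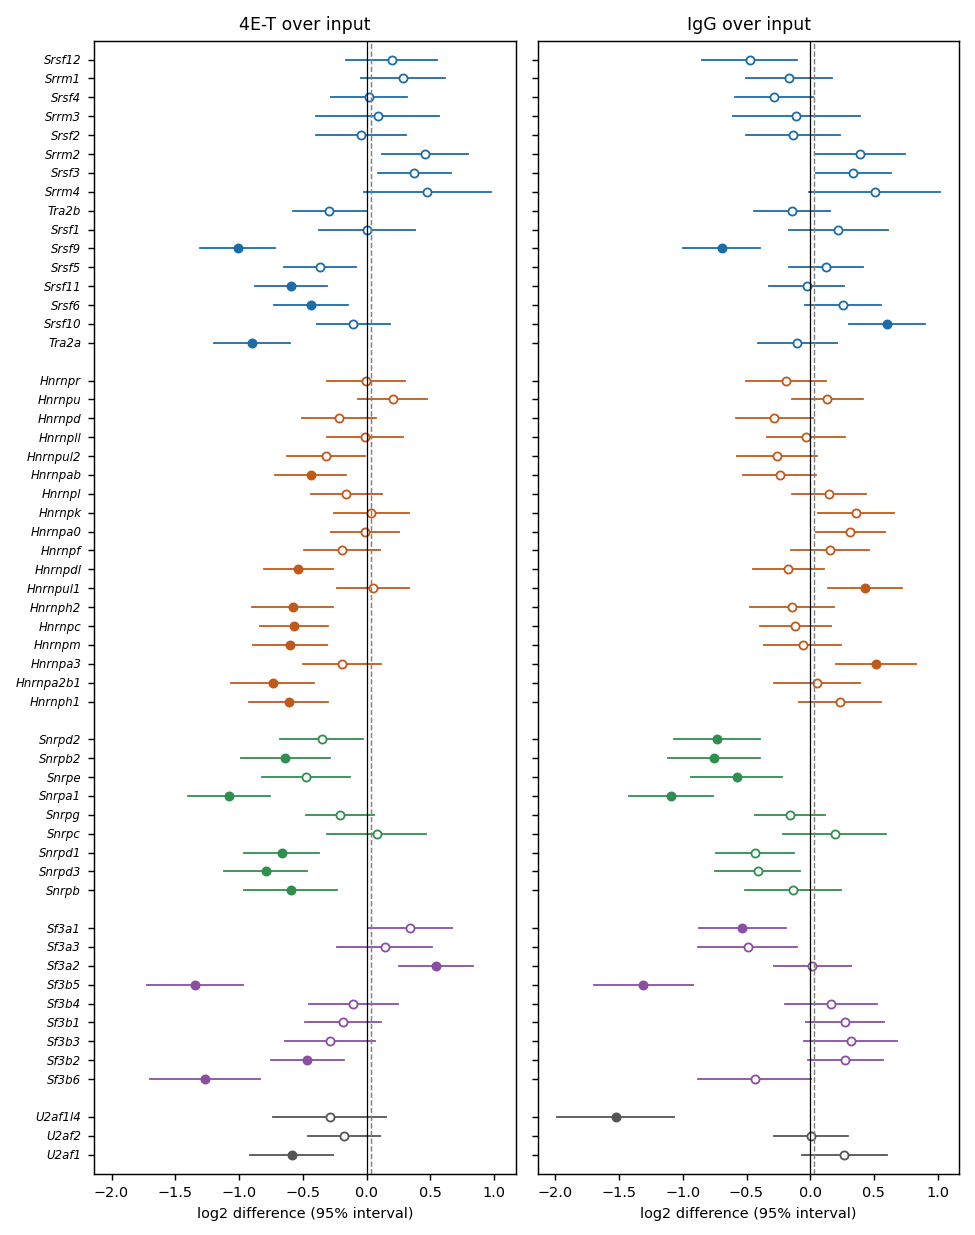
Log2 difference from input for each of the 55 genes by family, for 4E-T precipitates and IgG precipitates, with 95% intervals; filled points passed adjusted p under 0.05. Sf3b5, Snrpa1 and Srsf9 lie far left in both, Sf3b6 and Tra2a farther left in 4E-T, and U2af1l4 (-1.53) in IgG.

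Outside the snRNP family Sf3b5 and Srsf9 were low in both precipitates. Sf3b5, the smallest SF3B subunit, had 9.25, 8.42 and 8.48 with 4E-T and 8.55, 8.71 and 8.71 with IgG, against 9.92, 10.03, 10.15 and 10.06 in input. On the common scale input stood above every precipitate array, and input 1 above 4E-T 1, with -1.35 ± 0.17 for 4E-T, a level 2.54-fold lower (adjusted p = 2.99e-04), and -1.31 ± 0.18 for IgG (adjusted p = 4.84e-04). Srsf9, a short SR protein, had 8.38, 7.73 and 7.47 with 4E-T and 8.01, 8.06 and 7.86 with IgG, against 9.13, 8.79, 8.70 and 8.65 in input. It was -1.01 ± 0.13 with 4E-T (adjusted p = 3.71e-04) and -0.70 ± 0.14 with IgG (adjusted p = 0.00488), and it overlaps Gatc in the annotation. With Snrpa1 and Snrpb2 these made 4 of 55 genes lower than input in both precipitates (7.27%, against 5.75% of all genes), and 0 were higher than input in both (2.85% of all genes).

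A larger group was lower in 4E-T than in both IgG and input: 9 of 55 (16.4%, against 1.19% of all genes). All genes include many dim ones, and no share of the brighter genes was taken for this count. These were Hnrnpa2b1, Hnrnph1, Hnrnpm, Sf3b2, Sf3b6, Srsf6, Srsf11, Tra2a and U2af1. Against input Sf3b6 was at -1.27 ± 0.20 (adjusted p = 8.74e-04), Tra2a at -0.90 ± 0.14 (adjusted p = 7.67e-04) and Hnrnpa2b1 at -0.74 ± 0.15 (adjusted p = 0.00428). Without 4E-T 1 or input 1, Hnrnph1 (-0.61, adjusted p = 0.00967), Sf3b2 (-0.46, adjusted p = 0.0254) and Srsf6 (-0.44, adjusted p = 0.0364) lost their call against input, at adjusted p 0.0674, 0.133 and 0.116. U2af1 (-0.59, adjusted p = 0.0152) lost it without 4E-T 2 (0.0724) or 4E-T 3 (0.0978), and Srsf11 (-0.60, adjusted p = 0.00666) without 4E-T 3 (0.0513).

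Of the hnRNP genes 7 of 18 were lower with 4E-T than in input (8.86% of all genes) and 0 higher (10.4% of all genes; 0 also at an unadjusted p under 0.05 in limma). With IgG 0 were lower than in input (0 unadjusted, and 10.5% of all genes called) and 2 higher (6.14% of all genes). Hnrnpc, which binds uridine tracts, had 9.48, 9.51 and 9.53 with 4E-T and 9.84 to 10.13 with IgG, against 10.16, 10.07 and 10.11 in input 2 to 4. 4E-T 2 and 3 were the lowest of their scale and IgG overlapped input, at -0.57 for 4E-T (adjusted p = 0.00605) and -0.12 for IgG. Hnrnph2 (-0.58), Hnrnpdl (-0.53) and Hnrnpab (-0.44) were also called with 4E-T, and each lost its call in at least 1 fit that left out an array, Hnrnpab up to an adjusted p of 0.163 without 4E-T 3. IgG was above input for Hnrnpa3 (0.52, adjusted p = 0.03; up to 0.1, without input 2) and Hnrnpul1 (0.43, adjusted p = 0.0451; lost in all 10 fits that left out an array, up to 0.104 without IgG 3).

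In the SR family 4 of 16 genes were lower with 4E-T than in input (Srsf9, Tra2a, Srsf11, Srsf6; 8.86% of all genes) and 0 higher (10.4% of all genes), while 2 were higher at an unadjusted p under 0.05 in limma. With IgG, Srsf9 was lower and Srsf10 higher (0.60, adjusted p = 0.00978). With the replicate number as a block Srrm4, a microexon regulator in neurons, was also called higher than input with 4E-T (adjusted p = 0.00602), and with IgG as well. That block gave 2 higher genes of the 55 against input (3.64%, against 10.9% of all genes) and 20 lower (36.4%, against 9.46%). For 4E-T against IgG it gave 3 higher (5.45%, against 7.8%) and 13 lower (23.6%, against 3.26%), and for IgG against input 3 higher (5.45%, against 7.11%) and 9 lower (16.4%, against 11.5%).

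**Figure D5:**
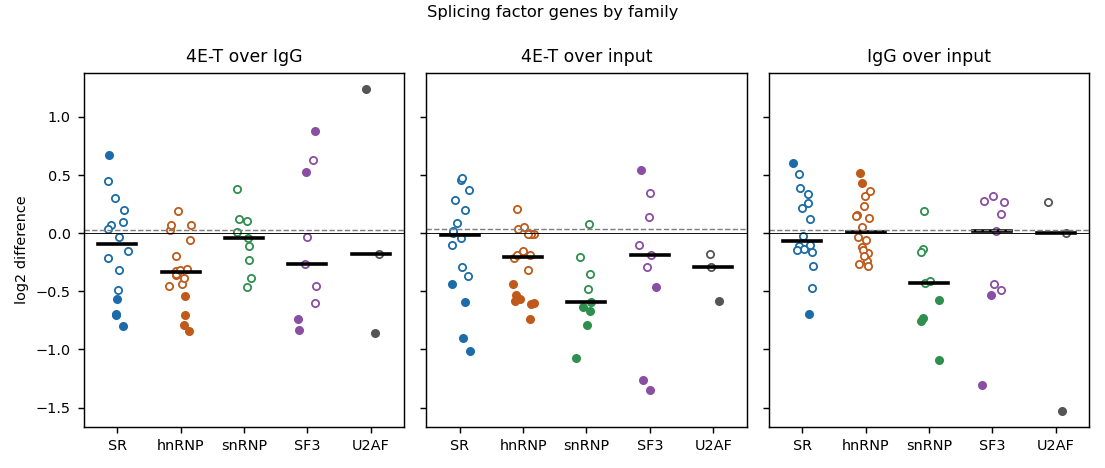
Log2 differences of the 55 genes by family in each comparison; each point is a gene, filled where called, the black bar is the family median and the dashed line the median of all genes. The hnRNP median is -0.34 for 4E-T against IgG and 0.01 for IgG against input, and the snRNP medians against input are -0.60 for 4E-T and -0.43 for IgG.

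The other genes of the pathway moved in both directions. Of 52 further spliceosome genes 9 were higher and 3 lower with 4E-T than with IgG, against 7.57% and 2.92% of all genes. The mean of the 52 was 7.74 to 7.78 in 4E-T 2 and 3, against a median level of 4.75 for all genes. In the fit of the brighter genes 19.5% of those genes were higher and 6.6% lower. The lists in this paragraph were not counted in that fit. Slu7 (1.02) and Txnl4b (1.00) were highest, and Prpf38b (-0.67) and Prpf40b (-0.74) lowest. Against input 5 were higher and 13 lower with 4E-T (10.4% and 8.86% of all genes), and 2 higher and 15 lower with IgG (6.14% and 10.5%). With group as the only term these counts were 1 and 0, 0 and 4, and 1 and 7, and at an unadjusted p under 0.05 in limma 8 and 6, 5 and 14, and 3 and 14. Of 33 other splicing regulators 4 were higher and 7 lower with 4E-T than with IgG (7.57% and 2.92% of all genes), and 1 and 1 with group as the only term. Against input 5 were higher and 6 lower with 4E-T (10.4% and 8.86% of all genes), and 9 higher and 4 lower with IgG (6.14% and 10.5%). With group as the only term the counts against input were 1 and 2, and 1 and 1. Between 4E-T and IgG, Ptbp1, the repressor of neuronal exons in precursors, was at 0.96 and Pcbp1 at 0.72. The paraspeckle protein Sfpq was at -1.08 and Rbmx, the hnRNP G gene, at -0.87. For IgG against input these genes were at -0.50, -1.26, 0.45 and -0.06, in the same order. None of the 6 measured kinases that phosphorylate SR proteins was called in limma (0 of 6, with Clk2 at 0.45 and Clk1 at -0.46 passing at an unadjusted p under 0.05).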

How the data were processed

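Per the submitters' processing notes, the authors made the deposited log2 intensities with RMA in Affymetrix Expression Console. Versions and the genome build of the probe sets are not given in the sources used here. Per the labels' protocols, RNA was precipitated with a Magna RIP kit, amplified with NuGEN Pico reagents and biotin-labelled, and nothing says whether the arrays came from separate litters, so p-values measure only the spread between these samples.

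Of 41345 probe sets 23521 had 1 symbol, 1814 several and 16010 no entry in the platform annotation; 23328 matched RefSeq genes (GRCm38.p6) and 0 symbols changed. limma 3.58.1 (R 4.3.3) was fitted to 22180 genes on 10 arrays with group and a term for 4E-T 1 and input 1, moderated by eBayes, with Benjamini-Hochberg adjustment over all genes and no filter on dim genes. The script was tested on simulated data. Precision is limited by the number of arrays, not by a read depth.

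Members and lists were chosen with earlier results of these data known. By rule, values per array were given for the lowest and highest gene of each family in 4E-T against IgG. The rule also took the gene of highest mean level in each family and the 8 genes of lowest adjusted p in each comparison. Other genes, such as Hnrnpm and Sf3a2, were added to the text with their values already known. Members of 12 genes had several probe sets, and 17 overlap another gene. Deviations of same-numbered 4E-T and input arrays correlated at r of 0.623 (the low pair), 0.24 and 0.277, but at 0.0442 and 0.00845 in the 8 arrays of one scale. Outside the low pair, 4E-T and input arrays of unlike number correlated at 0.186 to 0.269 over all 10 arrays. The values therefore do not mark the other 4E-T and input numbers as pairs. For IgG and input of like number r was -0.023, 0.0798 and 0.318 over all 10 arrays. In the 8 arrays of one scale it was 0.137, 0.0909 and 0.247, against -0.197 to 0.0763 for unlike numbers. IgG and input arrays of like number were thus more alike there, and the main fit has no term for this. Alternatives were the group alone, a replicate block, the 8 arrays, median-centred arrays, averaged probe sets, brighter genes, a trended robust fit, and each array left out. Without 4E-T 1 or without input 1 the term for the low pair takes up the other array. Both of these fits therefore equal that of the 8 arrays, and they are not separate checks among the 10 fits that left out an array. The design text gives 3 replicates of each kind, while the labels list 4 inputs.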

Additional observations from a re-analysis of the deposited data

Results flagged for a closer look

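Among the 4 input arrays, 6 of the 55 genes had an array far from the other 3 by Dixon's test. Chance gives about 1 in 20 groups where arrays share a scale, but input 1 does not share that of inputs 2 to 4. That rate therefore does not apply here, and the share of all genes was not taken. The test cannot tell an unusual gene from the lower scale of input 1, which was the lowest array in 5 of the 6. Hnrnpl was at 9.30 there against 9.61 to 9.65 in the others, and Hnrnpul1 at 9.003 against 10.25 to 10.39. Snrpc was at 6.06 against 7.30 to 7.46, Srrm3 at 4.18 against 5.31 to 5.37, and Srsf1 at 9.12 against 9.81 to 9.87. Input 1 is an array of the lower scale, with a median of 3.52 to 3.54 as in 4E-T 1. In Tra2b the highest array was input 2, at 9.09 against 8.82 to 8.84.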

How the results depend on the processing

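Arrays limit precision by their number, 3, 3 and 4 a group, of which 2, 3 and 3 share a scale. With group as the only term, 0 splicing factor genes were higher and 0 lower with 4E-T than with IgG, 0 and 6 with 4E-T than in input, and 0 and 3 with IgG than in input. The median difference of all genes was then -0.19 for 4E-T against IgG and 0.20 for IgG against input, instead of 0.03 and 0.03. Over all genes these counts were 157 and 142, 568 and 793, and 322 and 884. The hnRNP median for 4E-T against IgG was then -0.41, and the SR median for IgG against input 0.12. With arrays centred on their medians, the counts of splicing factor genes were 2 and 2, 0 and 7, and 0 higher in IgG than in input, and over all genes 1095 and 415, 1427 and 1235, and 822 higher. Centring gave medians for 4E-T against IgG of -0.093 (all 55 genes), 0.034 (SR), -0.22 (hnRNP), 0.077 (SF3) and 0.0915 (U2AF), of which SR, SF3 and U2AF changed sign. The snRNP median also moved from below to above 0. For IgG against input it gave -0.23 (all 55), -0.12 (hnRNP), -0.20 (SF3) and -0.22 (U2AF). A trended robust fit called 17 genes lower with 4E-T than with IgG, 3 higher with 4E-T than in input, and 5 higher with IgG than in input. The shares of all genes in that fit are not given here, so these counts cannot be set against them. Genes called higher with 4E-T than in input numbered 3 in the fit of brighter genes and 4 on the 8 arrays, where the SR median was -0.11. Averaging probe sets moved the hnRNP median there to -0.31, and reversed Hnrnpu (-0.76) between 4E-T and IgG. With the replicate block, 3 and 13 genes were called higher and lower with 4E-T than with IgG, 2 and 20 with 4E-T than in input, and 3 and 9 with IgG than in input; Sf3a2 and Hnrnpul1 lost a call. Leaving out 1 array gave 0 to 3 higher and 1 to 13 lower for 4E-T against IgG (663 to 1676 and 251 to 644 over all genes), with the low ends without 4E-T 2 or 3. It gave 0 to 4 and 12 to 21 for 4E-T against input (1427 to 2518 and 1272 to 2161), and 1 to 2 higher for IgG against input (819 to 1334 over all genes). Medians ranged from -0.11 to 0.0105 (SR, 4E-T against input), from -0.12 to 0.022 (all 55, IgG against input) and from -0.034 to 0.076 (hnRNP, IgG against input). Apart from the centring named above, the cause of these shifts was not tested.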
